A study of Homo sapiens with 72 samples.

Results

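The human B cell line Raji carried 332 H3K4me2 regions that had no H3K4me2 peak in the leukemia line REH. They lay more than 5 kb from every annotated start of a protein-coding or lncRNA gene. Immunoglobulin gene segments are annotated as types of their own and were not counted as starts, and some of the regions lie over them. The regions were picked from the peaks of the 3 untreated Raji libraries. These peaks merged into 17642 regions on chromosomes 1 to 22 and X, of which 9666 were called in 3 of 3 libraries. Of these, 871 lay more than 5 kb from every start of a protein-coding or lncRNA gene in GENCODE 44, and 332 of the 871, or 38.1%, overlapped no H3K4me2 peak in any of the 6 REH libraries. The choice therefore used the H3K4me2 calls of untreated Raji and of REH, and the H3K4me2 levels of those libraries are given below as a description with no test. The 332 regions covered 951 kb and had a median length of 2515 bp, with a range from 700 to 8910 bp.

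Raji is a Burkitt's lymphoma line of a mature, immunoglobulin-expressing B cell. REH and NALM6 are lines of acute lymphocytic leukemia of B cell precursors. Each line was either left untreated or given 1 nM bryostatin, an activator of protein kinase C, in an overnight culture by the labels, which the text of the study puts at 24 hours. Cut&Tag, in which a transposase is directed to an antibody-bound histone mark, was run for H3K4me2, H3K4me3 and H3K27me3 with 3 replicates of each condition, which makes 54 libraries. The sources used here do not say whether replicates were separate cultures, so the spread between them may be technical. Each line is a single established cell line, so line and tumor type cannot be told apart. The marks at lineage genes set the lines apart as their labels do. In H3K4me3 of untreated cells, the mature B cell genes MS4A1 (CD20), FCER2 (CD23) and CR2 (CD21) had a peak at their start in 3 of 3 Raji libraries and in 0 of 3 libraries of NALM6 and of REH. DNTT (terminal transferase) and IGLL1 (surrogate light chain), both genes of B cell precursors, had one in 3 of 3 NALM6 and 3 of 3 REH libraries and in 0 of 3 Raji libraries. The precursor recombinase gene RAG1 had a peak in 3 of 3 libraries of all lines, and CD3E, CD2, CD14, MPO and GATA1 of other lineages had none in any.

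H3K4me2 marks both gene starts and enhancers, the distal elements where transcription factors bind and act on a start some distance away. H3K4me3 is concentrated at active starts, and H3K27me3 covers silenced genes. In B cells the immunoglobulin loci hold well-known elements of this kind, among them the 3′ regulatory region downstream of the alpha constant genes and the promoters of the V segments. V promoters carry the octamer ATGCAAAT, which the factors Oct-2 and Oct-1 bind together with the B cell coactivator OCA-B.

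The sequences that recur in the results below are those with an octamer. A pair of V promoters, taken as the 250 bases before the annotated segment, stands for the immunoglobulin members, and 4 windows of 300 bases from distal regions stand for octamers outside those loci. Each is centred on the stretch of highest signal within the region in the deepest untreated Raji library, which need not be the middle of the region. All are from the hg38 reference, read 5′ to 3′ on the plus strand except for IGHV4-34, whose gene is on the minus strand. Capitals mark the octamer, as ATGCAAAT or its reverse complement ATTTGCAT. The windows are chr14:106374146-106374395 before IGHV4-34, chr22:22195549-22195798 before IGLV6-57, chr15:70036596-70036895 in an intergenic region 13.7 kb from a start of TLE3, chr3:31947566-31947865 in an intron of OSBPL10, chr5:173821116-173821415 in an intergenic region 62.5 kb from a start of CPEB4, and chr2:54092946-54093245 in an intron of ACYP2.
IGHV4-34: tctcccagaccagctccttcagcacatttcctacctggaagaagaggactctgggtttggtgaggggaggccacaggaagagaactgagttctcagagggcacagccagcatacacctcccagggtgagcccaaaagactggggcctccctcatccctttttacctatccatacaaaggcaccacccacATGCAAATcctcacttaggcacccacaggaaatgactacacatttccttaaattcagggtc
IGLV6-57: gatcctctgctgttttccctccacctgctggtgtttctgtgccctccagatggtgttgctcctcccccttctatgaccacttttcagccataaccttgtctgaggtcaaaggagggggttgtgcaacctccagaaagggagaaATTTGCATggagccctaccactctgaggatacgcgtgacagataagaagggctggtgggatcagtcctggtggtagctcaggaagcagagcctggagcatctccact
TLE3: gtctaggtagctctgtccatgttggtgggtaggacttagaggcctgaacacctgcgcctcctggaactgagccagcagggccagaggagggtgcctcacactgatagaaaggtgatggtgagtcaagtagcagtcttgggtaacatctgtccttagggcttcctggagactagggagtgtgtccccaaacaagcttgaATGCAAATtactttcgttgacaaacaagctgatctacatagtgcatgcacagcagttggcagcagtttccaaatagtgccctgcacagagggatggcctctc
OSBPL10: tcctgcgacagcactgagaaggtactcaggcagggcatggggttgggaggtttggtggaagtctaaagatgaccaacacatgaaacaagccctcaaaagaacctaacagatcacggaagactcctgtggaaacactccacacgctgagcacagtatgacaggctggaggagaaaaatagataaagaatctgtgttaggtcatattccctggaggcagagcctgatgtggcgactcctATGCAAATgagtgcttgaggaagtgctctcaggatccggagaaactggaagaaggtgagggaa
CPEB4: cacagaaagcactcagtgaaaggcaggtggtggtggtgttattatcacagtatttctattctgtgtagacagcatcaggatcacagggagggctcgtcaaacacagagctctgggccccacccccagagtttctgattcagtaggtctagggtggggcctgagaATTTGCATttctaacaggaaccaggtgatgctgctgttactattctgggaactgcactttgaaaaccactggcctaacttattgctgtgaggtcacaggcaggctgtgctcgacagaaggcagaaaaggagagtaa
ACYP2: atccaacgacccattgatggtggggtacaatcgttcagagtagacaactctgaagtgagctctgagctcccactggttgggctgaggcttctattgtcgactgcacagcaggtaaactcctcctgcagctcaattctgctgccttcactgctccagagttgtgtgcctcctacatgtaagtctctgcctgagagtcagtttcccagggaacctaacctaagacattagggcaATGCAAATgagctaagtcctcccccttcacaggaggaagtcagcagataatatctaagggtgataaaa
Before IGHV4-34 the octamer ends 53 bases from the segment, and before IGLV6-57 it ends 99 bases from it. The TLE3 window also holds TGAGTCA, a match to the AP-1 motif TGANTCA, and the CPEB4 window holds TGATTCA.

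A window from each of 2 further regions shows other motifs of B cell enhancers. The first, chr2:31256386-31256685, lies in an intron of EHD3 within the region of highest signal in a gene intron. Its capitals mark TTTCACTTCC, a match to the composite element of GGAA, 2 free bases and GAAA, at which an ETS factor such as PU.1 pairs with IRF4 or IRF8. The second, chr14:102805376-102805675, lies in an intron of TRAF3, an inhibitor of noncanonical NF-kB signalling, and its capitals mark the AP-1 match TGAGTCA. Both are on the plus strand of hg38.
EHD3: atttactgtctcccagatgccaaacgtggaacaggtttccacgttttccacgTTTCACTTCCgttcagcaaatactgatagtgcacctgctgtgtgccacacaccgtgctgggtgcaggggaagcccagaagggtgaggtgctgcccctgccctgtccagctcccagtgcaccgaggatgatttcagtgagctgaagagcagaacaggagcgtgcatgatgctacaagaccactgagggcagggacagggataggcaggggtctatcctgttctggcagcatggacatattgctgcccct
TRAF3: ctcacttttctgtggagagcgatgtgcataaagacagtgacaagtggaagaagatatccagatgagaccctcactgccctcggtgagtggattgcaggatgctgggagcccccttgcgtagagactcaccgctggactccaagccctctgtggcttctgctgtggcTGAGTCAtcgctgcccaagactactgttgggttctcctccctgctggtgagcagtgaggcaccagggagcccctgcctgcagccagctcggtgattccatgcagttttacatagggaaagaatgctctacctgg
A match is a description of the letters and not evidence of binding.

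The depth of the libraries bears on the choice. The untreated Raji H3K4me2 libraries had 8.31, 6.70 and 13.9 M (mega) mapped reads, read from the size of the RPKM step, and the 6 REH ones had between 13.7 and 22.8 M. The REH libraries that gave no call here were thus deeper than at least 2 of the 3 Raji libraries that gave one. Untreated Raji replicate 2 had the fewest peaks, with 10497 against 19727 and 14703 in replicates 1 and 3, and it limited the set. Without it 1378 regions would have met the rule, against 333 without replicate 1 and 399 without replicate 3. At the distance limit, the nearest members lay 5164 bp from a start of LINC01679 and 5279 bp from PTCSC2. The nearest regions left out lay 4968 bp from ENSG00000250259, 4945 bp from KLHL6 and 4920 bp from LINC01138. Among the 871 distal regions the REH calls fell mostly at the ends, with 332 regions called in 0 and 309 called in 6 of the 6 REH libraries.

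H3K4me2 over the 332 regions was lower than over the distal regions that both lines carry. Signal is given as a multiple of the median region called in all 6 Raji H3K4me2 libraries, and since it is summed over the bases of a peak it grows with its length. In this paragraph it was taken over regions merged from the 6 libraries, which were wider than the member for 75 of the 332. The median member had 0.739, 0.635 and 0.795 of the median region in untreated replicates 1, 2 and 3. The 380 distal regions that were also called in 3 of 3 untreated REH libraries had 0.938, 0.932 and 0.961. Between 77 and 129 of the 332 members exceeded the median region in a given untreated library.

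The highest signal of all, at chr14:105707611-105712630, lay over the 5′ end of the constant gene IGHA1, which encodes the heavy chain of IgA1. IGHA1 spans chr14:105703995-105708665 on the minus strand, so most of the region lies upstream of the gene. The region had 5.23, 5.58 and 4.69 times the median region in untreated replicates 1, 2 and 3. Next came a region over SLC37A1 (chr21:42530211-42537770), a glucose-6-phosphate transporter gene, with 3.10, 3.12 and 3.48. These 2 regions held the first ranks in a narrow range between replicates. A region 1.80 kb downstream of IGHA1, at chr14:105695511-105702190, had 2.11, 3.15 and 2.60. The EHD3 region (chr2:31250701-31259300), in the gene of an endocytic recycling protein, had 2.59, 2.39 and 3.36. The region 59.0 kb from FRG2B (chr10:133685821-133690470) had 1.11, 2.30 and 3.16, a spread between replicates that its neighbours in rank did not show. The region 14.3 kb from MRPL36, a mitochondrial ribosomal protein gene, had 2.28, 2.34 and 1.95 (chr5:1781121-1785450). Over the 5′ end of the constant gene IGHG1 and the sequence upstream of it (chr14:105741061-105746160) the values were 1.61, 2.21 and 2.14. Over the lambda segment IGLV6-57 (chr22:22195011-22199320) they were 1.96, 1.98 and 2.00, the closest agreement of the 10. The last of the 10 were 9.76 kb from GRHPR, a glyoxylate reductase gene (chr9:37405831-37412910), with 1.88, 1.49 and 1.91, and 16.6 kb from DUSP2, a MAP kinase phosphatase gene (chr2:96162021-96165310), with 1.85, 1.84 and 1.49. The IGHA1 region did not overlap any other in its replicate values. Below it the replicate ranges of neighbours in rank overlapped, except that GRHPR lay just under IGLV6-57, and 4 of the 10 regions lay in immunoglobulin loci.

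**Figure D1:**
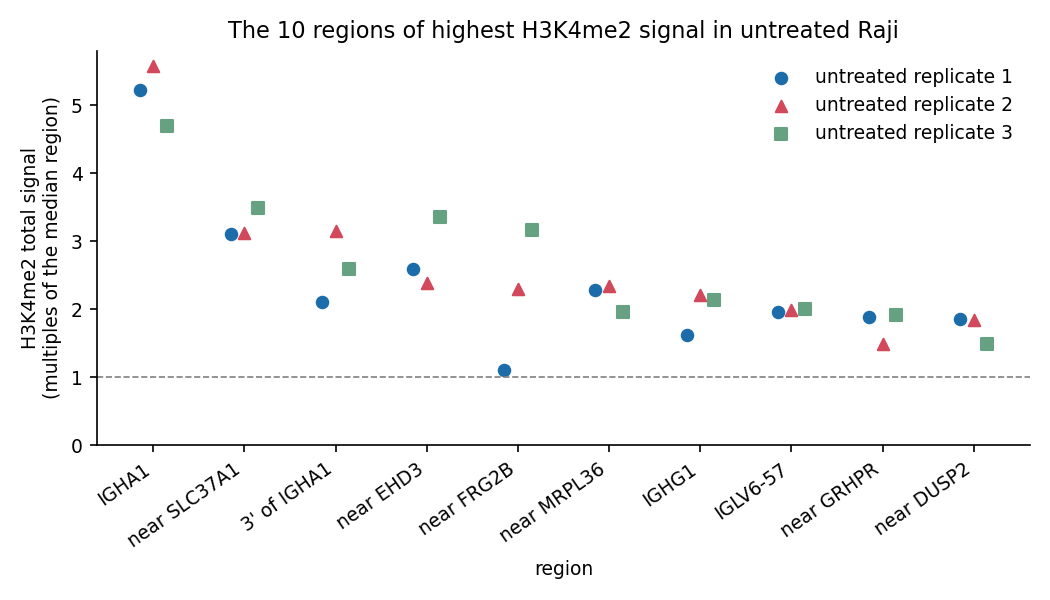
The 10 member regions of highest median H3K4me2 signal in untreated Raji. The y axis is the total signal as a multiple of the median region, each point is 1 of 3 replicates, and the dashed line is the median region. The IGHA1 region sits between 4.69 and 5.58, above every other region, and all points are above 1.

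The immunoglobulin loci, each with 50 kb on either side, held 35 of the 332 regions, or 10.5%. All distal Raji regions held 47 of 871 there, the 380 regions shared with REH held 10, and the 822 distal REH regions with no Raji peak held 3. These loci are rearranged in B cells, so reference positions within them may differ from those in the line. The heavy chain locus IGH had 18 members, the kappa locus IGK 8 and the lambda locus IGL 9. Of the 35, 23 lay over a V segment and 2 over a constant gene. These 23 regions overlapped 25 V segments, and 2 more members lay over orphan kappa segments elsewhere on chromosome 2. Their spread was wide, from a median of 0.304 to 5.23 times the median region, and the median over the 35 was 0.747 against 0.671 over the 297 members outside these loci.

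Downstream of the alpha genes, where the 3′ regulatory region of the heavy chain locus lies, there were 4 members. A region 5.83 kb downstream of IGHA2 (chr14:105573581-105577900) had 0.98, 0.98 and 0.95 of the median region in untreated replicates 1, 2 and 3. Another, 15.9 kb downstream of IGHA2 (chr14:105565331-105567810), had 0.42, 0.76 and 0.59. Of the other pair, downstream of IGHA1, the region at 1.80 kb is described above and the one at 10.1 kb (chr14:105692101-105693920) had 0.24, 0.58 and 0.30. Among the V segments, IGHV4-31 had the highest heavy chain values, 1.47, 1.70 and 1.43. IGHV4-34, whose promoter is printed above, had 0.48, 0.59 and 0.59. In the kappa locus the highest was IGKV2D-29 with 1.20, 0.74 and 1.06. Runs of members less than 50 kb apart were few outside these loci. Of the 5 runs of 3 or more members, 3 were in IGH, 1 was in IGL with 7 members over 145 kb, and the last lay in ANO6, a phospholipid scramblase gene, with 3 members over 20.2 kb.

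Of the 27 V segments overlapped by members, 19 had an octamer in the 300 bases before the segment, or 70.4%. Among those annotated as genes and not pseudogenes it was 17 of 19, or 89.5%. Over all V segments annotated on the chromosomes of the 3 loci it was 143 of 297 (48.1%), and over all those annotated as genes 97 of 132 (73.5%). The shares are counts of letters on either strand, with no test, and the segments are related copies of each other.

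The octamer also recurred outside the immunoglobulin loci. In a window of 500 bp centred on the stretch of highest signal, taken in the deepest untreated library of Raji or, for REH regions, of REH, ATGCAAAT was present on either strand in 45 of 332 members, or 13.6%. Outside the immunoglobulin loci it was in 34 of 297, or 11.4%. It was in 15 of the 380 regions shared with REH (3.95%), in 11 of the 822 distal REH regions with no Raji peak (1.34%), in 69 of all 871 distal Raji regions (7.92%), and in 251 of all 9666 regions (2.60%). Members were poorer in GC than the other sets, with a median of 52.7% against 59.6% in the shared regions, 57.8% in the REH regions and 64.2% in all regions, and by composition alone an AT-rich motif is more common in AT-rich sequence. Among windows under 55% GC the octamer was in 36 of 221 members (16.3%), or 31 of 200 (15.5%) outside the immunoglobulin loci. In the same GC range it was in 7 of 102 shared regions (6.86%) and 6 of 275 REH regions (2.18%). The order of members, shared regions and REH regions was therefore the same within this range. All distal Raji regions stood between members and shared regions, with and without the GC limit. The set of all Raji regions changed place. It was below the shared regions over all windows and above them under 55% GC, with 7.70%.

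Other motifs had smaller ratios between the sets, although the common E2A site below differed by more percentage points. AP-1 (TGANTCA) was in 18.1% of member windows, 13.9% of the shared regions and 10.2% of the REH regions with no Raji peak. The NF-kB motif, GGGA and TTCC with 2 bases between them, was in 5.42%, 3.42% and 2.68% of them, and the MEF2 motif, CTA and TAG with 4 bases between them, in 6.33%, 4.74% and 3.04%. For these 3 motifs the members had the largest share and the REH regions the smallest. RUNX (TGTGGTT) followed the same order with 13.6%, 11.8% and 9.12%, and so did the E2A site CAGGTG with 56.9%, 45.8% and 41.5%. The early B cell factor motif, TCCC and GGGA with 2 bases between them, went the other way, with 3.31% of members, 3.68% of shared regions and 6.69% of REH regions. The E-box CAGCTG was in 41.3%, 35.5% and 47.7%, the RBPJ motif TGGGAA in 40.7%, 36.8% and 40.4%, the ETS motif AGGAAGT in 18.1%, 22.9% and 19.5%, and the composite element of an ETS and an IRF factor in 6.02%, 6.84% and 4.26%. Both strands were searched and motifs may overlap. CG dinucleotides were fewer in members, with a median of 6 in a window against 15.5 in shared and 12 in REH regions.

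The regions sat mainly in and near genes. Of the 332, 141 lay in an intron of a protein-coding gene, 28 touched an exon, 28 lay in the body of an lncRNA gene and 135 were intergenic. Among the shared regions 53.2% were intergenic, against 40.7% of members and 34.0% of the 297 members outside the immunoglobulin loci. The median distance to the nearest protein-coding start was 23.7 kb, or 19.7 kb outside those loci, and 272 regions had one within 100 kb, of 244 genes. No member lay on chromosome X. The genes nearest to most members were the ordinary genes flanking immunoglobulin loci, namely TMEM121 with 18 and RPIA with 8 members, then TPTE with 6, VPREB1 with 4, and ANO6, JAZF1 and TOP3B with 3 each. The 6 regions assigned to TPTE lay at least 2413 kb away on the short arm of chromosome 21. Each had 3 or 4 other copies in hg38, so that reads from them may not be assignable to one place, which was not tested. In all, 13 members (3.92%) had another copy in hg38 over at least 80% of their length at 95% identity or more, against 23 of the 380 shared regions.

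B cell genes were among the hosts and neighbours. Of 34 genes of B cell receptor signalling, 7 held or neighboured 8 members outside the immunoglobulin loci. The strongest was in an intron of ITPKB, an inositol trisphosphate kinase gene (chr1:226696351-226699780), with 1.70, 1.10 and 1.42 of the median region in untreated replicates 1, 2 and 3. The others were at RASGRP3, TEC, SWAP70, the tyrosine kinase LYN, the phosphatase INPP5D (SHIP1) and VAV2, with medians from 0.312 to 1.15. Of 42 B lineage transcription factor genes, 8 had 9 members. An intron of ETS1 (chr11:128470871-128476470) had 1.68, 0.461 and 1.96, so that replicate 2 was well below the others. An intergenic region 200.2 kb from ETS1 (chr11:128258421-128263730) had 1.44, 1.39 and 1.84. FLI1, RUNX3, BATF, TOX, FOXP1, ELF1 and PAX5 each had 1 member, with medians from 0.417 at PAX5 to 0.862 at FLI1.

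Of 38 NF-kB and CD40 target genes, 4 had 5 members, namely TRAF3 with 2, and TNFSF9 (4-1BB ligand) and the survival genes BCL2A1 and BCL2L1 with 1 each. The stronger TRAF3 region (chr14:102805081-102808600), the source of the AP-1 window above, had 0.97, 0.70 and 1.07. Of 44 mature and germinal centre B cell genes, 3 had 4 members. MYBL1, a germinal centre MYB factor, had a region 19.2 kb from its start with 1.58, 1.04 and 1.77, BCL6 had 2 intergenic or lncRNA regions 155 and 189 kb away, and MME (CD10) had 1 region 257 kb away with 0.38, 0.54 and 0.37. MME was also the 1 hit among 19 precursor B cell genes outside the immunoglobulin loci. Of 28 chemokine and homing receptor genes only CNR2, a cannabinoid receptor gene, held a member. Of 15 housekeeping genes ACTB had 1, and the lists of 17 plasma cell, 33 T and NK cell, 20 myeloid and 13 erythroid genes had 0. Counted the same way, the mature and germinal centre list had 0 of the 380 shared regions and 0 of the 822 REH regions with no Raji peak, against 4 of 332 members, and the NF-kB and CD40 list had 1 and 0 against 5. B cell receptor signalling had 5 and 5 against 8, and the transcription factor list 13 and 9 against 9. The counts are too small to set the sets apart.

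H3K4me3 was compared between untreated Raji and REH at the starts of the neighbours. A larger share of them than of all starts was higher in Raji, a difference of shares that was not tested. This mark was not used in the choice of the regions. For the 244 neighbour genes, 146 H3K4me3 regions at the starts of 140 genes were called in all 6 untreated libraries and could be tested. Of the 146, 61 were higher in Raji (41.8%) and 28 lower (19.2%) at an adjusted p under 0.05 (limma, Benjamini-Hochberg over 6440 regions). Over all 6440 start regions the shares were 23.6% higher and 27% lower. The median log2 difference was 0.17 for the neighbours and -0.02 for all regions. Neighbours of the 380 shared regions had 48 higher (23.5%) and 72 lower (35.3%) of 204. Those of the 822 REH regions with no Raji peak had 47 higher (19.1%) and 103 lower (41.9%) of 246. The counts and the size of the difference depended on the measure. Measured by peak maximum, 34 neighbours were higher (23.3%, against 10.3% of all start regions) and 9 lower (6.16%, against 14.3%). With the mean signal per base 20 were higher (13.7%, against 8.93%) and 13 lower (8.90%, against 13.1%), and the median difference was 0.01 for the neighbours and 0.00 for all, so that by this measure the medians were nearly alike.

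**Figure D2:**
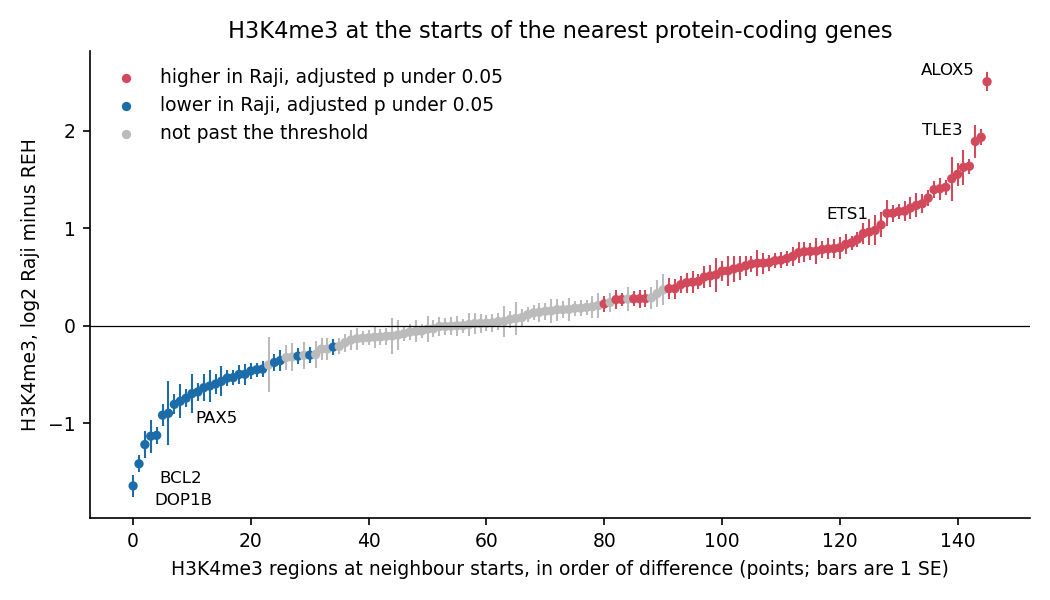
H3K4me3 difference between untreated Raji and REH (y axis, log2, Raji minus REH) at 146 start regions of the nearest protein-coding genes, in order of the difference (x axis), with bars of 1 SE. Red points are the 61 regions higher in Raji, blue points the 28 lower and grey points those not past the threshold.

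The largest difference was at ALOX5, the 5-lipoxygenase gene, which has a member 10.8 kb from its start. H3K4me3 there was 2.45, 2.68 and 2.78 times the median start region in Raji and 0.501, 0.485 and 0.413 in REH, so every Raji library was above every REH library. The log2 difference was 2.50 ± 0.10 (SE, adjusted p = 1.51e-07, limma, n = 3 and 3). SWAP70, a B cell signalling adaptor with a member in its intron, had 2.69, 2.65 and 2.43 in Raji and 0.652, 0.662 and 0.718 in REH, a log2 difference of 1.93 ± 0.08 (adjusted p = 1.98e-07, limma). TLE3, a Groucho corepressor with 2 members, had 2.07, 2.28 and 2.22 against 0.740, 0.642 and 0.434, a log2 difference of 1.89 ± 0.17 (adjusted p = 1.42e-05, limma). Neither gene's values overlapped between the lines. Further ones higher in Raji were LRRK1 (1.64 ± 0.08), PPP1R16B (1.63 ± 0.18), MYBL1 (1.42 ± 0.08), BCL2L1 (1.15 ± 0.13), ETS1 (1.03 ± 0.13), ITPKB (0.75 ± 0.11) and INPP5D (0.64 ± 0.14). Every one of these passed the adjusted p, the weakest being INPP5D with 0.00317 in limma.

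Among the genes lower in Raji was BCL2, the antiapoptotic gene, with a member in its intron. H3K4me3 at its start was 1.25, 1.53 and 1.30 in Raji and 3.62, 3.54 and 3.68 in REH, a log2 difference of -1.42 ± 0.09 (adjusted p = 1.7e-06, limma). DOP1B had the largest difference in this direction, -1.64 ± 0.11. PAX5, the B lineage factor, stood far above the median start in both lines, with 7.12, 7.65 and 7.71 in Raji and 12.2, 12.8 and 14.4 in REH, and a difference of -0.81 ± 0.10. FLI1 had -0.74 ± 0.10. TRAF3 did not pass the test, with 0.15 ± 0.12 (adjusted p = 0.333, limma). CYRIB had 2 start regions that went opposite ways, 0.77 ± 0.13 and -0.92 ± 0.11.

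Presence or absence of H3K4me3 gave a like picture. A peak within 1 kb of a start was called in 3 of 3 untreated Raji and 0 of 3 REH libraries for 17 of the 244 neighbours, or 6.97%, against 2.14% of 19962 protein-coding genes. The reverse was seen for 6 neighbours, or 2.46%, against 2.60% of all genes. Neighbours of the shared regions had 10 of 310 in the first pattern and 18 in the second, and those of the REH regions with no Raji peak 10 of 583 and 68. The 17 genes were A4GALT, BATF, BCL2A1, CD69, DUSP2, FAM81A, IL10RA, KCNMA1, LAX1, MARCHF1, PTAFR, RGS16, RUNX3, SCART1, ST14, TPD52 and ZNF287. CD69 is an early activation antigen, IL10RA the interleukin 10 receptor chain, BATF and RUNX3 lymphocyte transcription factors, and LAX1 an adaptor of antigen receptor signalling. The member nearest CD69 (chr12:9728671-9732210) lay 28.7 kb from its start and had 1.12, 0.68 and 1.30 of the median H3K4me2 region. The one at IL10RA (chr11:118006171-118013000) lay 13.1 kb away with 1.17, 0.90 and 1.32, and the one at BCL2A1 (chr15:79977001-79980080) 5.80 kb away with 1.01, 0.87 and 0.95. These 3 regions had no peak in any NALM6 library. The 6 genes of the reverse pattern were ASAP1, EPHB2, HVCN1, MDGA1, TMEM121 and TTLL9.

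NALM6 carried few of the regions. An H3K4me2 peak was called at 3, 25 and 36 of the 332 in untreated replicates 1, 2 and 3, and at 10, 36 and 42 with bryostatin. The lowest values were those of replicate 1, which was deposited with another scaling and had shorter H3K4me2 peaks than the other NALM6 replicates. In at least 2 of 3 untreated libraries 24 members were called, or 7.23%, against 33.4% of all 871 distal Raji regions. The share was 64.5% for the shared regions and 27.5% for the distal REH regions with no Raji peak. A peak in all 3 untreated libraries was called for 3 members, and 280 had none in any of the 6. The 24 had a median H3K4me2 signal in Raji of 1.04 times the median region, against 0.663 for the 280.

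**Figure D3:**
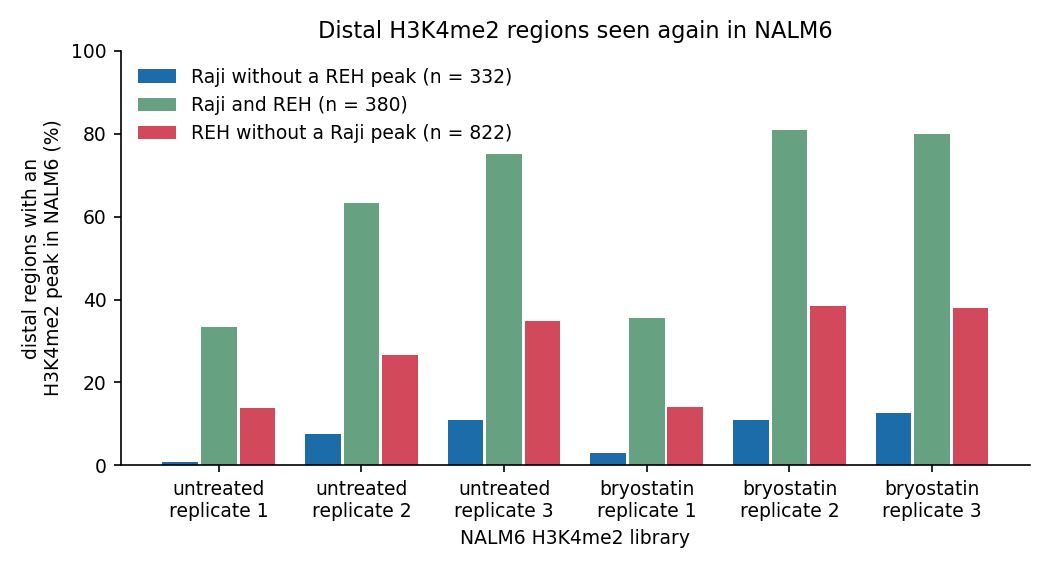
Share of distal H3K4me2 regions with an H3K4me2 peak in each NALM6 library (y axis, percent) for 3 sets of regions. Members of the Raji set stand between 0.904% and 12.7%, below the other sets in every library, and replicate 1 is lowest in both conditions.

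Of the 24, 6 were in immunoglobulin loci, 5 of them in IGH, and 4 were regions with other copies in hg38 on the short arm of chromosome 21. In IGK, 0 of 8 members were called in any NALM6 library. The regions downstream of the alpha genes were among those that NALM6 carried. At 1.80 kb from IGHA1 the signal in untreated NALM6 replicates 2 and 3 was 1.76 and 2.42 times the NALM6 median region, with no peak in replicate 1, and with bryostatin it was 1.27 and 1.60. At 5.83 kb from IGHA2 it was 1.45 and 2.06 untreated and 1.14 and 1.42 with bryostatin. IGHV2-70 had 1.79 and 2.26 untreated and 1.99 and 2.24 with bryostatin. In untreated Raji it had 0.69, 0.50 and 0.95 of the Raji median region. Scale and region bounds differ between the lines, so these levels cannot be ranked against each other. Over IGHA1 itself, the strongest Raji region, only 1 of 3 untreated NALM6 libraries had a peak.

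A single member was called in all 6 NALM6 libraries, in an intron of GRAMD4 (chr22:46586011-46588960), the gene of a mitochondrial proapoptotic protein. It had 0.57, 1.50 and 1.73 of the NALM6 median region untreated and 0.39, 1.08 and 1.14 with bryostatin, and 1.48, 1.96 and 1.46 of the Raji median in untreated Raji. In 5 of 6 libraries were the regions 18.9 kb from IFNGR2, the interferon gamma receptor chain (chr21:33382181-33384500), over RAB11FIP4, a RAB11 effector gene (chr17:31537251-31538870), 9.03 kb from DUSP2 (chr2:96154471-96160010) and in an intron of TBC1D14 (chr4:6962231-6964700). Their NALM6 values where called lay between 0.30 and 0.71 of the median region. The other DUSP2 region, the stronger of the pair in Raji, had no peak in any NALM6 library.

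H3K4me3 was called in Raji at 98, 52 and 42 of the 332 members in untreated replicates 1, 2 and 3 and at 71, 53 and 23 with bryostatin. The largest count came with the deepest library, untreated replicate 1 with 47.9 M mapped reads. In at least 2 of 3 untreated libraries it was called at 52 members, or 15.7%, against 25.7% of all distal Raji regions and 39.5% of the shared ones, and 23 members had it in all 6 libraries. These 52 had a median H3K4me2 signal of 1.07 times the median region, and the 233 with no H3K4me3 call 0.623. In REH, where the rule had already left out every region with an H3K4me2 peak, each H3K4me3 library had a peak at 0 or 1 members. That count is given as a description. The strongest by H3K4me2 of the 23 were IGHA1, SLC37A1 and IGHG1. H3K4me3 over IGHA1 was 1.41, 1.12 and 1.15 times the median H3K4me3 region untreated, over SLC37A1 it was 0.42, 0.95 and 0.66, and over IGHG1 2.13, 1.93 and 2.16. IGHG1 thus exceeded the median H3K4me3 region in every untreated library. Its region had no protein-coding or lncRNA start within 5 kb, but it spans the annotated 5′ end of IGHG1, which was not counted as a start.

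H3K27me3 was called at few members in most libraries. Untreated libraries had a peak at 2 to 24 of the 332 members in Raji, 18 to 30 in REH and 1 to 35 in NALM6. With bryostatin the counts were 2 to 20 in Raji, 15 to 28 in REH and 2 to 59 in NALM6, where the highest was 17.8% of the members. In 3 of 3 untreated REH libraries it was called at 15 members, or 4.52%, against 3.44% of all distal Raji regions. In 7 of the 15 members, 0 of 3 untreated Raji libraries had a call. That pattern was not counted over all distal Raji regions, so it does not set the members apart. Both regions near TLE3 were among the 7. The first of them (chr15:70034331-70037760), the source of the octamer window above, had 1.24, 0.80 and 1.17 of the median H3K4me2 region in untreated Raji, and the second (chr15:70014211-70020160) 0.58, 0.71 and 0.86. The untreated Raji H3K27me3 libraries ranged from 5.12 to 32.4 M mapped reads and the shallowest had 851 peaks, so that a missing call there says little. The other 5 of the 7 were near CADPS, OR4N4, TMPRSS13 and FOXE1 and over IGLV5-45.

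After bryostatin nearly all of the regions were still called in Raji, with 332, 331 and 314 of 332 in replicates 1, 2 and 3. Every bryostatin library was deeper, with 15.6, 18.8 and 16.1 M mapped reads, than every untreated one, and the part of depth in the changes was not tested. Of the members, 314 lay in 309 regions that were called in all 6 libraries and could be tested. The tested regions were merged anew over the 6 libraries, and for 75 of the 332 members the merged region was wider than the member. Of the 327 merged regions that held a member, 16 came within 5 kb of a start. The changes below are those of the merged regions. None of the 309 passed an adjusted p of 0.05 in limma, nor did any of all 9312 regions tested (0% called). The smallest adjusted p of a member was 0.0595. At an unadjusted p under 0.05 there were 45 of 309 members (14.6%), 56 of 505 other distal Raji regions (11.1%) and 628 of 9312 regions (6.74%).

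The untreated libraries of this comparison are those that chose the members, and a region must be high enough in all 3 to be chosen, so the direction of the change is given as a description. It was up in 139 and down in 170 regions, with a median of -0.05 on the log2 scale against -0.07 for other distal Raji regions and -0.03 for all regions. All 3 bryostatin values lay below all 3 untreated values in 38 regions (12.3%), against 8.12% of other distal and 5.75% of all regions. They lay above them in 5 regions (1.62%), against 4.36% and 4.96%. In the immunoglobulin loci 25 of 32 tested members were below 0 with a median of -0.24, and outside them 149 of 282 were, with a median of -0.02. These are counts of members, and members that share a merged region, as at IGHG1 and downstream of IGHA1, carry the same value. Without centring on the median region the median of members was 0.20 and that of all regions 0.21.

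**Figure D4:**
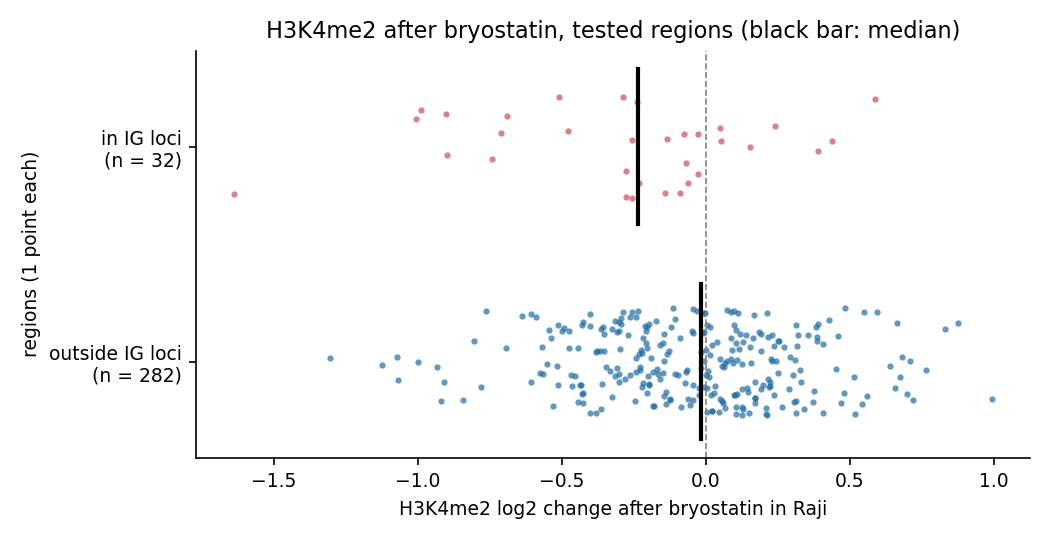
H3K4me2 log2 change after bryostatin in Raji (x axis) for the 314 members in tested regions, 1 point each, split into those in immunoglobulin (IG) loci and those outside, with a black bar at each median (-0.24 and -0.02). Members that share a merged region have the same value. No region passed the adjusted p.

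The largest change was over IGLV5-45 (chr22:22375151-22377430), which had 0.447, 0.484 and 0.764 of the median region untreated and 0.100, 0.172 and 0.320 with bryostatin, a log2 change of -1.64 ± 0.40 (SE, adjusted p = 0.321, limma, n = 3 and 3). It was low in both conditions, with no overlap. A region in BICD2, a dynein adaptor gene (chr9:92726971-92730310), had 1.72, 2.04 and 1.64 untreated and 0.415, 0.850 and 1.07 with bryostatin, with -1.31 ± 0.28 (adjusted p = 0.215, limma). In FAM193A (chr4:2597031-2601700) the values were 1.04, 1.09 and 0.895 and then 0.328, 0.626 and 0.476, with -1.12 ± 0.23. These groups did not overlap either. The other 2 of the 5 largest were a region 129.7 kb from ANKRD36 over an orphan kappa segment (chr2:97375301-97377480), with -1.07 ± 0.16, and one in an intron of C10orf105 and CDH23 (chr10:71725901-71729680), with -1.07 ± 0.15. Both had an adjusted p of 0.0595 in limma. The ANKRD36 region is a copied sequence, and its merged region over the 6 libraries was wider than the member.

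Of the strongest regions, IGHA1 had 5.23, 5.58 and 4.94 untreated and 2.52, 3.08 and 4.22 with bryostatin over the region merged from the 6 libraries, a log2 change of -0.71 ± 0.17 (adjusted p = 0.308, limma). IGLV6-57 went from 1.96, 1.98 and 2.00 to 0.935, 1.05 and 1.21, with -0.90 ± 0.15 (adjusted p = 0.0598, limma). Neither set of values overlapped. SLC37A1 (-0.15 ± 0.15), EHD3 (0.11 ± 0.17) and DUSP2 (-0.23 ± 0.15) moved by less than 2 SE. Bryostatin replicate 3 had the fewest peaks of the treated libraries, 12409, and untreated replicate 2 the fewest of the untreated. Without these 2 libraries 6 members and 31 of all regions passed the adjusted p, among them the regions over IGHA1 (-0.93) and IGLV6-57 (-1.06), the one in C10orf105 (-1.23) and the one over RAB11FIP4 (-1.34). That setting was chosen after the data had been seen.

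In NALM6 only the GRAMD4 region could be tested, with a log2 change of -0.54 ± 0.55 (adjusted p = 0.999, limma). Same-numbered NALM6 libraries deviated together, but replicates 2 and 3 deviated together about as much across numbers. Pairing by number was therefore not clear. With a replicate block the change was -0.54 ± 0.16 (adjusted p = 0.731, limma), lower in 3 of 3 pairs. There 0% of 4128 regions were called in either fit, with 56 at an unadjusted p under 0.05 and 134 with the block. The difference in response between Raji and NALM6, tested as an interaction over 12 libraries, called 0 of 6 member regions and 0% of 3295 in all, with 0 and 33 at an unadjusted p under 0.05. In H3K4me3 of Raji, 22 member regions were tested for bryostatin and none was called by limma against 0.155% of 9031 regions. At an unadjusted p under 0.05 there were 3 of the 22 (13.6%), 9 of 100 other distal Raji regions and 5.65% of all regions. Same-numbered H3K4me3 libraries deviated together, and a fit that blocked on replicate number called 3 of the 22 and 135 of all regions. The 22 went down in 18 cases and up in 4, with a median of -0.19. Of the 100 other distal Raji regions 66 went down, with a median of -0.09. Of all 9031 regions 4723 went down, with a median of -0.01.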

How the data were processed

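Cut&Tag libraries for H3K4me2, H3K4me3 and H3K27me3 were used from 3 lines, with and without bryostatin, in 3 replicates each (54 libraries). The 18 IgG libraries were not used here. Per the labels, the authors trimmed reads with Trim Galore, aligned them to hg38 with Bowtie2 and called peaks in each library with SEACR (stringent). The deposited signal of a peak is its coverage summed over its bases. The deposited maximum is in RPKM, which the authors computed in 10 bp bins, in 48 libraries. All 6 NALM6 replicate 1 libraries carry another scaling that is not given in the sources used here.

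Peaks that touched were merged. Starts were those of every GENCODE 44 transcript of protein-coding and lncRNA genes. Immunoglobulin gene segments have gene types of their own and were not counted as starts. The other distal sets followed the same rule. The shared set was called in 3 of 3 untreated Raji and 3 of 3 untreated REH libraries. The REH set was called in 3 of 3 untreated REH libraries and in 0 of 6 Raji libraries. Depth was read from the RPKM values, which were whole multiples of 1 step within 0.02 in each library. Signal was tested on the log2 scale in regions called in every library of a comparison, after centring on the median region, with limma 3.58.1 (empirical Bayes with trend, R 4.3.3) and Benjamini-Hochberg adjustment over all regions at 0.05. No pseudocount was needed. Total signal mixes the width and the height of a peak. The fits of Raji H3K4me2 and of H3K4me3 at gene starts were tested on simulated data. In the simulated Raji H3K4me2 values, 3 of 50 regions changed by 0.5 on the log2 scale were recovered. For a change of 1 it was 31 of 50. Copies were found with minimap2, and sequences, which are those of the reference and not of the lines, were searched with Python 3.11.15. Immunoglobulin loci in Raji are rearranged and translocated, so hg38 distances there may not hold.

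Same-numbered libraries deviated together in Raji H3K4me3 (correlations of 0.54, 0.48 and 0.53) and NALM6 H3K4me2 (0.45, 0.40 and 0.44), but not in Raji H3K4me2 (0.42, -0.25 and -0.31) or between REH and Raji H3K4me3 (-0.11, 0.31 and 0.08). In Raji H3K4me2, untreated replicate 2 deviated with bryostatin replicate 3 (0.48), and untreated replicate 3 with bryostatin replicate 2 (0.41). The same crossed pairs of NALM6 H3K4me2 had 0.41 and 0.35, so pairing by number was not clear there. No fit was blocked on these crossed pairs. The members and gene lists were chosen with earlier results of these data known. Named regions were the 10 of highest median untreated signal, those called most often in NALM6, the 5 of largest change with bryostatin, members of the lists and the genes with most members. The sequence windows and some regions were chosen after values were seen.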

Additional observations from a re-analysis of the deposited data

How the results depend on the processing

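The number of members depended on the peak calls. It was 332, and 506 with only the first start of each gene counted, 1383 when calls in 2 of 3 untreated Raji libraries sufficed, 59 from the stronger peaks of each library, those above its median signal, and 333 to 1378 with 1 Raji replicate left out. In these settings members called in NALM6 numbered 44, 24 to 31 and 11 in place of 24 (first start, replicates left out, stronger peaks), and 37 or 3 when 1 or 3 of 3 NALM6 libraries were required. As a share this was 2.25% without replicate 2 and 18.6% with the stronger peaks, against 7.23%. Members with H3K4me3 in Raji numbered 107, 88 and 18 in place of 52 (first start, calls in 2 of 3, stronger peaks), 99 when 1 call sufficed, and 52 to 88 with 1 replicate left out, or 6.39% of members without replicate 2 and 30.5% with the stronger peaks, against 15.7%. For H3K4me3 at neighbour starts, 61 higher and 28 lower (all regions 23.6% and 27%) became 34 and 9 with the maximum signal (10.3% and 14.3%), 20 and 13 with the mean signal per base (8.93% and 13.1%), and 20 and 11 without centring (2.84% and 12.6%), where all regions shifted by -0.20. With a replicate block they were 59 and 27 (23.3% and 26.3%). For bryostatin, 0 members in H3K4me2 became 6 without untreated replicate 2 and bryostatin replicate 3, a setting chosen after seeing the data. The count stayed at 0 with a block on replicate number, by which the Raji H3K4me2 libraries did not deviate together. For H3K4me3 the block, where the pairing held, called 3. No called value changed its direction. Without centring, the median change of members with bryostatin went from -0.05 to 0.20, and that of neighbour starts from 0.17 to -0.01. Calls depend on depth, and a missing peak is not a missing mark.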
